A study of Mus musculus with 15 samples.

Results

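Hox genes are the homeobox transcription factor genes of the HoxA, HoxB, HoxC and HoxD clusters, and 39 of the 51826 genes in the expression tables carried a symbol of this form (Hoxa, Hoxb, Hoxc or Hoxd followed by a number). RNA was sequenced from whole mammary tissue in 15 libraries of 13 mice. Trim24COE females carried MMTV-Cre, which acts in mammary epithelium, and a floxed stop cassette ahead of FLAG-tagged mouse Trim24, inserted as a single-copy transgene, and 3 of their tumors were labelled carcinosarcoma (mice 64, 567 and 897) and 3 carcinoma (mice 89, 273_5 and 3956). The controls were mammary glands of 4 age-matched virgin females with the same MMTV-Cre and no transgene (mice 133, 392, 417_3 and 517_3). A further 3 tumors arose spontaneously in FVB or FVB/129 mice of unknown genotype and are called non-TRIM24 tumors (mice 219, FVB001 and FVB002). The labels give the strain of the Trim24COE and control mice as FVB and the series text as FVB/129, the position of the gland on the body is not given, and pathologists' calls differed for tumors 89, 567 and 3956.

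Hox genes lie in an order along each cluster that matches their order of expression along the body axis, and genes at the same position in different clusters (paralogs) share a number. They set regional identity in the embryo, acting on DNA together with the TALE homeodomain proteins of the Pbx, Meis and Pknox families, and Polycomb and trithorax proteins hold their inactive and active states. In the mammary gland the paralogs Hoxa9, Hoxb9 and Hoxd9 are needed for growth in pregnancy and Hoxc6 for normal development of the gland, and adult fibroblasts and fat depots also keep the Hox pattern of their body position.

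The clusters held 11 HoxA genes on chromosome 6, 10 HoxB genes on chromosome 11, 9 HoxC genes on chromosome 15 and 9 HoxD genes on chromosome 2, spanning 105.3, 173.9, 115.8 and 96.8 kb (GRCm38). Members that fell in tumors and had a promoter in RefSeq (GRCm38.p6) are shown first. Each runs from 250 bases before to 50 after the start, written 5′ to 3′ on the strand of the gene. The windows are chr2:74697513-74697812 (+) for Hoxd9, chr2:74691641-74691940 (+) for Hoxd10, chr2:74721728-74722027 (+) for Hoxd4, chr11:96318017-96318316 (+) for Hoxb4 and chr6:52218524-52218823 (-) for Hoxa7. Capitals mark, on either strand, the CCAAT box (CCAAT), the GC box (GGGCGG), the TATA box (TATAAA), the E-box CACGTG and the Pbx-Hox site TGATNNAT, where N is any base.
Hoxd9: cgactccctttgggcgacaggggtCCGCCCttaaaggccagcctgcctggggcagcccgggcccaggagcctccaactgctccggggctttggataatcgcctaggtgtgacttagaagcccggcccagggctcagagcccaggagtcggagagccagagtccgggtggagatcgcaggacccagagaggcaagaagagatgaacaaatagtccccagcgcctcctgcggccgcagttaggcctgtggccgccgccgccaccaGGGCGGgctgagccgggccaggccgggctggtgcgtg
Hoxd10: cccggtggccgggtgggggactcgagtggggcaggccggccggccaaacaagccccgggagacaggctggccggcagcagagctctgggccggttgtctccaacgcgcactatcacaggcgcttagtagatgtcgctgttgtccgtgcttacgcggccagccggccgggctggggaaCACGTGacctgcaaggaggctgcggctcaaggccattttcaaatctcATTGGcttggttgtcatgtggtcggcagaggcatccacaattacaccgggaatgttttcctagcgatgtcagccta
Hoxd4: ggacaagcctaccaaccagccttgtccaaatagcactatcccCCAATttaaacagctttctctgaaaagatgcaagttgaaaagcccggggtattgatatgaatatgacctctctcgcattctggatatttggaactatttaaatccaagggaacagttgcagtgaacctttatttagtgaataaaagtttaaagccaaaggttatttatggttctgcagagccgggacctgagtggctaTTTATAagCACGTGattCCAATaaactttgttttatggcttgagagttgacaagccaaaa
Hoxb4: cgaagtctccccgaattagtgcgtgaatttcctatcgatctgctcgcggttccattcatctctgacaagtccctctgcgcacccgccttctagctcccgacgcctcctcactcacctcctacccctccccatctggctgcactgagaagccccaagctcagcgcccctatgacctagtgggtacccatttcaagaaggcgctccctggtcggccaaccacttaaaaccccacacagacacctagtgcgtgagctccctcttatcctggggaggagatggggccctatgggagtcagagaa
Hoxa7: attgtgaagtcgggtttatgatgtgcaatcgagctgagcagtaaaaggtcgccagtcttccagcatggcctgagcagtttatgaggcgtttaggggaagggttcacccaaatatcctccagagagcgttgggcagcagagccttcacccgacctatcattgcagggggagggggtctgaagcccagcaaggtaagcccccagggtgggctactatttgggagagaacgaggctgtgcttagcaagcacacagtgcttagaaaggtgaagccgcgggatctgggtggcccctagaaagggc
The Hoxd9 window held 2 GC boxes, the Hoxd10 window 1 CCAAT box and 1 E-box, and the Hoxd4 window 2 CCAAT boxes, 1 TATA box and 1 E-box, whereas the Hoxb4 and Hoxa7 windows held no match. Promoters were supplied for 22 members (24 windows). A CCAAT box was in 62.5% of these windows against 37.4% of all 32851 windows, a GC box in 41.7% against 35.7%, a TATA box in 16.7% against 13.6%, CACGTG in 20.8% against 7.15% and TGATNNAT in 16.7% against 8.85%. These are letter matches only, and GC content was also higher in Hox windows (median 57.7% against 52.7%).

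Levels are in TPM, transcript abundance corrected for transcript length and for the size of the library, so a level is a share of the RNA sequenced. Trim24 itself was at 10.6 to 24.08 TPM in Trim24COE tumors and 14.54 to 22.41 TPM in control glands, so the ranges overlapped and the level of this gene does not check the labels. Summed TPM of 10 adipocyte genes was 34500 and 46200 in glands 133 and 392 (called fat-rich here) but 1980 and 2150 in glands 417_3 and 517_3 (fat-poor). It was 66600 and 33000 in tumors FVB001 and FVB002, near or above the fat-rich glands, and 232 in tumor 219. FVB001 also had little epithelial RNA, with Epcam at 36.42 TPM and Cdh1 at 4.84 TPM against 153.36 to 660.87 and 36.88 to 196.12 TPM in the control glands. The carcinosarcomas had Epcam at 2.73 to 36.44 TPM. Glands 417_3 and 517_3 were closer to each other (Spearman 0.979, 2.92% of 16775 genes over 2-fold apart) than the repeat libraries of mouse 133 (0.965, 4.29%) or of mouse 3956 (0.971, 3.48%), and no Hox gene differed between them by over 2-fold on TPM + 1. Whether they are separate glands was not tested, and counts of members called against control glands are also given with the pair averaged.

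Over the 13 mice, 31 Hox genes reached 1 TPM in at least 1 mouse and 4 reached it in every mouse: Hoxa5, Hoxb2, Hoxb7 and Hoxd8. Another 8 stayed below 1 TPM in every mouse, namely Hoxa13, Hoxb13, Hoxc12, Hoxd1, Hoxd3, Hoxd11, Hoxd12 and Hoxd13, so the 5′ end of HoxD beyond Hoxd10 was near silent in glands and tumors alike. The members with the highest mean TPM were Hoxc8 at 11.5 ± 18.4 (SD, n = 13 mice), Hoxd8 at 8.80 ± 5.40, Hoxc6 at 8.36 ± 9.30, Hoxb2 at 6.99 ± 4.13 and Hoxa7 at 6.09 ± 7.33, and these means differed by less than their spread. The mean of Hoxc8 rests on gland 392, without which it was 7.05 TPM, and by median Hoxb2 (7.65 TPM) and Hoxd8 (7.45 TPM) stood above Hoxc8 (2.45 TPM). The total over all members ran from 83.95 to 281.56 TPM in control glands, from 33.62 to 88.4 in Trim24COE tumors and from 29.14 to 210.43 in non-TRIM24 tumors. Between 9 (carcinosarcoma 897 and tumor 219) and 26 members (glands 133 and 392 and tumor FVB001) reached 1 TPM in a mouse.

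**Figure D1:**
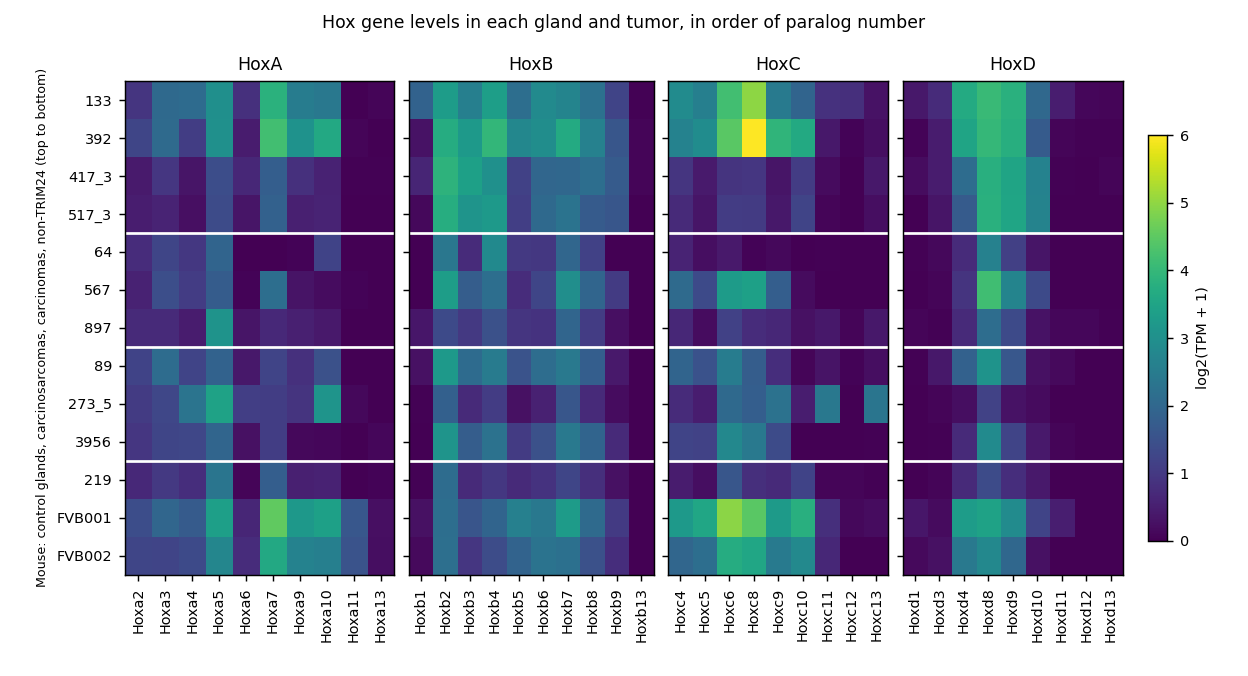
Level of 38 Hox genes (columns, in paralog order within each cluster) in each mouse (rows, first library), as log2(TPM + 1); white lines separate control glands, carcinosarcomas, carcinomas and non-TRIM24 tumors. HoxC is bright in glands 133 and 392 and tumors FVB001 and FVB002, whereas Hoxb3, Hoxb4, Hoxd9 and Hoxd10 are brighter in all 4 glands than in every tumor.

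The clusters differed in how they followed the groups. Summed HoxD was 45.12, 40.53, 32.25 and 31.49 TPM in glands 133, 392, 417_3 and 517_3. In tumors it was 7.50, 24.72 and 6.09 TPM in carcinosarcomas 64, 567 and 897, 12.84, 1.84 and 8.74 TPM in carcinomas 89, 273_5 and 3956, and 3.34, 27.4 and 13.8 TPM in tumors 219, FVB001 and FVB002. All 4 glands were thus above all 9 tumors for HoxD. The same held for summed HoxB, at 40.81 to 67.03 TPM in glands and 7.82 to 30.9 TPM in tumors. HoxC behaved differently: its sum was 68.41 and 123.75 TPM in glands 133 and 392 and 92.16 and 40.34 TPM in tumors FVB001 and FVB002, but 4.84 and 4.92 TPM in glands 417_3 and 517_3, within the range of the Trim24COE tumors (1.14 to 25.72 TPM). HoxA followed the same mice, with 38.67, 50.25, 59.97 and 35.5 TPM in 133, 392, FVB001 and FVB002 and 6.73 to 13.78 TPM elsewhere, except for carcinoma 273_5 at 31.2 TPM. Because these are bulk tissues, fewer cells of a type and less RNA per cell cannot be told apart.

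**Figure D2:**
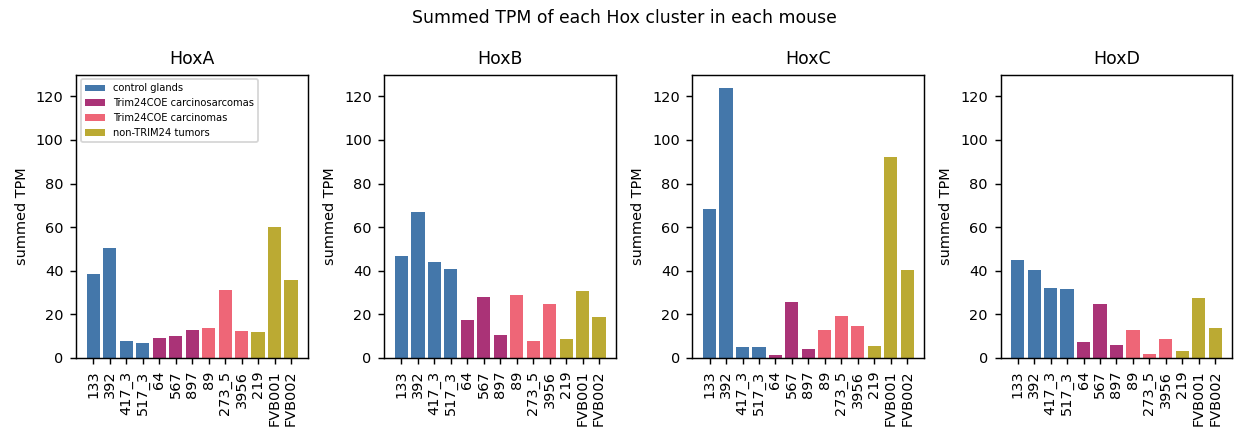
Summed TPM of the members of each cluster (vertical axis) in each mouse (horizontal axis, first library), with 1 bar per mouse colored by group. HoxB and HoxD bars of the 4 control glands stand above those of all tumors, whereas HoxA and HoxC bars are tall in 133, 392, FVB001 and FVB002.

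The most 5′ member of each cluster at 1 TPM or more also varied. In HoxD it was Hoxd10 in all 4 glands, in carcinosarcoma 567 and in FVB001, Hoxd9 in mice 64, 897, 89, 3956 and FVB002, and Hoxd8 in 273_5 and 219. In HoxC it was Hoxc10 in the 4 glands and the 3 non-TRIM24 tumors, whereas no HoxC gene reached 1 TPM in carcinosarcoma 64 and Hoxc6 was the last in carcinosarcoma 897. Carcinoma 273_5 reached Hoxc13, which was at 4.02 TPM there and at most 0.31 TPM in the other 12 mice. Paralogs 9 to 13 made up 36.0% of Hox TPM in 273_5, 6.98% to 13% in the other Trim24COE tumors and 18.2% to 24.8% in control glands.

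To ask which Hox genes differed between Trim24COE tumors and control glands, log2(TPM + 1) was compared with limma over 6 tumors and 4 glands, with p-values adjusted over all 15196 genes tested. Of the 39 members, 24 passed the minimum of 1 TPM in at least 4 libraries, and 9 fell in tumors: Hoxb3, Hoxb4, Hoxb6 and Hoxb9 of HoxB, Hoxd4, Hoxd9 and Hoxd10 of HoxD, Hoxa7 and Hoxc10. No member rose. Of all genes tested, 17.1% were called and 9.13% were called lower. The median log2 difference was -0.99 over the tested members and -0.04 over all genes, and it was negative for 21 of the 24 against 52.1% of all genes; with adipocyte RNA as a covariate these values were -0.30 and 13 of 24.

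Hoxd9 was at 12.97, 12.52, 10.32 and 10.51 TPM in glands 133, 392, 417_3 and 517_3 and at 0.22, 1.44 and 5.48 TPM (lowest, median, highest) in the 6 tumors. No tumor reached the lowest gland. On the log2 scale of TPM + 1 it was lower by a difference of -2.26 (SE 0.39, adjusted p = 0.00373, limma with Benjamini-Hochberg adjustment). Hoxd10, which human breast cancer work knows as a target of miR-10b, was at 3.10, 2.30, 5.27 and 5.47 TPM in the same glands and at 0.13, 0.25 and 1.54 TPM in tumors. Its difference was -1.80 (SE 0.30, adjusted p = 0.00304), again with no overlap. Hoxd4, a more 3′ gene of the cluster, was at 11.72, 10.29, 3.32 and 2.31 TPM in glands and 0.16, 0.66 and 2.66 TPM in tumors, so that carcinoma 89 lay within the range of the fat-poor glands. Its difference was -1.89 (SE 0.44, adjusted p = 0.0153). Hoxd8, between them, was at 15.82, 14.89, 12.73 and 12.93 TPM in glands and 1.27, 5.8 and 16.78 TPM in tumors, with carcinosarcoma 567 above every gland, and its difference of -1.23 (SE 0.47) did not pass (adjusted p = 0.0922, limma).

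Among HoxB genes, Hoxb3 was at 5.05, 8.44, 9.62 and 7.64 TPM in glands 133, 392, 417_3 and 517_3 and at 0.64, 1.69 and 3.26 TPM in tumors, a difference of -1.75 (SE 0.34, adjusted p = 0.00692, limma). Hoxb4, known for self-renewal of blood stem cells, was at 9.31, 14.65, 7.11 and 8.33 TPM in glands and 1.09, 3.66 and 6.24 TPM in tumors (difference -1.34, SE 0.37, adjusted p = 0.0304). Neither gene overlapped between groups in the first libraries, but in the repeat library of gland 133 both lay below carcinoma 89. Hoxb9, the paralog of Hoxd9, was at 1.36, 2.05, 2.29 and 2.02 TPM in glands and 0.00, 0.25 and 1.05 TPM in tumors (difference -1.11, SE 0.24, adjusted p = 0.0119), also with no overlap. Hoxb6 was at 6.36, 6.65, 2.97 and 3.15 TPM in glands and 0.46, 1.17 and 3.44 TPM in tumors (difference -1.25, SE 0.35, adjusted p = 0.0314), and carcinoma 89 overlapped the fat-poor glands. The more abundant Hoxb2 was at 9.04, 12.19, 13.65 and 12.26 TPM in glands and 1.53, 5.92 and 9.09 TPM in tumors, and its difference of -1.13 (SE 0.41) did not pass (adjusted p = 0.0801). Hoxb7, at 5.54, 11.7, 3.04 and 3.84 TPM in glands and 2.04, 3.63 and 6.76 TPM in tumors, overlapped in part (-0.44, SE 0.37, adjusted p = 0.435).

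**Figure D3:**
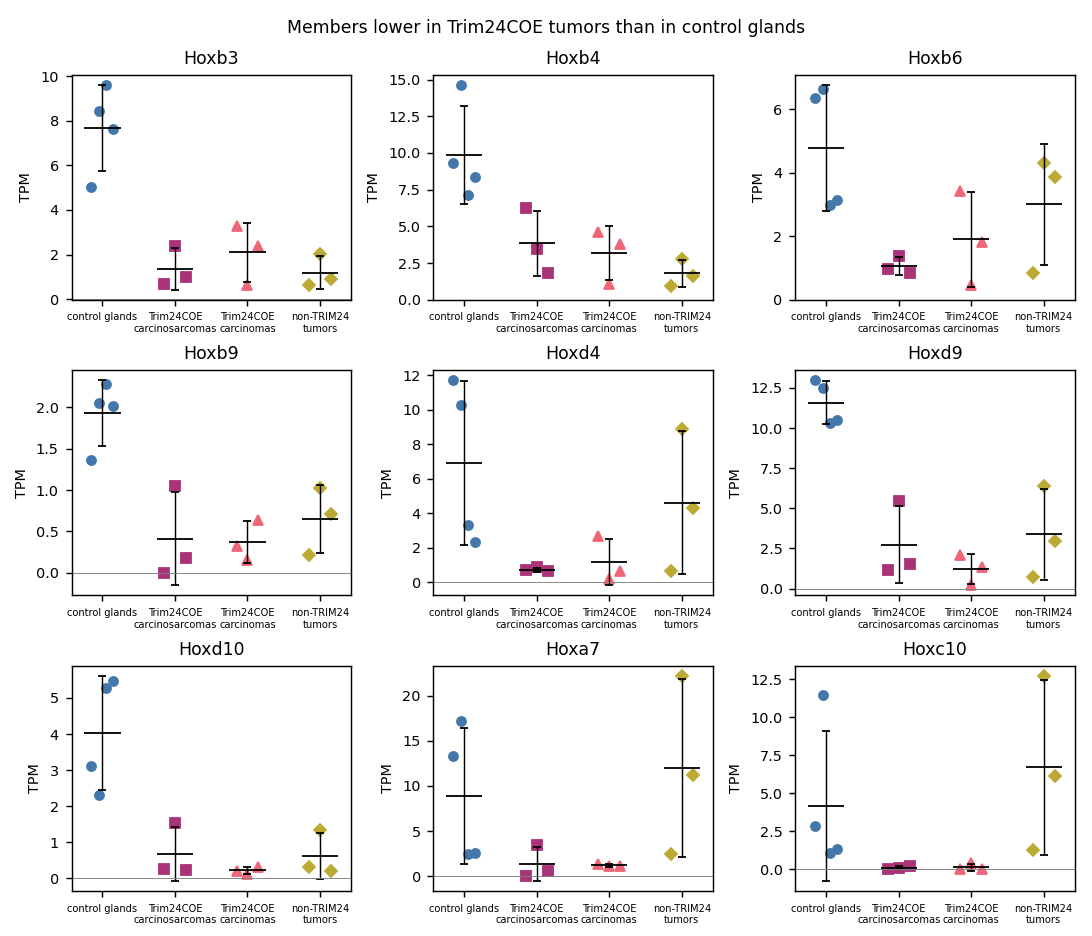
TPM (vertical axes) of the 9 members that fell in Trim24COE tumors, in each of the 13 mice by group; horizontal lines are group means and vertical bars are SD. The 4 control glands sit above the 6 Trim24COE tumors for Hoxb3, Hoxb4, Hoxb9, Hoxd9, Hoxd10 and Hoxc10, and Hoxa7 and Hoxc10 in 2 non-TRIM24 tumors lie near or above the fat-rich glands.

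Hoxa7 and Hoxc10 passed the same test on a different pattern. Hoxa7 was at 13.29 and 17.16 TPM in glands 133 and 392, 2.47 and 2.61 TPM in glands 417_3 and 517_3, and 0.00, 1.12 and 3.48 TPM in tumors (difference -1.87, SE 0.55, adjusted p = 0.0397, limma). Hoxc10, a gene of the lumbar region and of subcutaneous fat, was at 2.83 and 11.45 TPM in the fat-rich and 1.10 and 1.33 TPM in the fat-poor glands, and at 0.00, 0.09 and 0.40 TPM in tumors (difference -1.80, SE 0.43, adjusted p = 0.0177). Within the control group both genes spanned several-fold, and Hoxa7 in the fat-poor glands lay below carcinosarcoma 567. In all, 6 of the 24 tested members (Hoxb3, Hoxb4, Hoxb9, Hoxc10, Hoxd9 and Hoxd10) were lower in every tumor than in every gland, against 7.2% of all genes tested. Hoxc10 reached 1 TPM in the 4 glands and in no Trim24COE tumor, so it passed the minimum only through the glands and its separation follows in part from that. Hoxb9, Hoxd4 and Hoxd10 reached 1 TPM in 1 Trim24COE tumor each, and Hoxb3 and Hoxb6 in 3. They too needed the glands to meet the minimum of 4 libraries, and their difference is in part set by that minimum. In an exact two-sided permutation test over the 6 tumors and 4 glands, Hoxb3, Hoxb9, Hoxc10, Hoxd9 and Hoxd10 each gave p = 0.00476. This is the smallest that 210 arrangements can give, 24 members were computed, and these p-values are unadjusted. Glands 417_3 and 517_3 were also averaged into 1, a choice made after the data were seen. Hoxb3, Hoxb9, Hoxc10, Hoxd4, Hoxd9 and Hoxd10 then each gave p = 0.0119 in the exact test, the smallest of 84 arrangements. Of these, all but Hoxd9 needed the glands to meet the minimum, so their exact p-values add nothing to their levels.

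Some called members share sequence with other annotated genes, and the strand setting of the authors' quantification is not given in the sources used here. Hoxd9 (chr2:74697727-74700208), Hoxb4 (chr11:96318267-96321638) and Hoxb9 (chr11:96271457-96276595) overlap no other gene. Hoxd10 overlaps Gm28309 and Hoxc10 overlaps Hoxc5 on the same strand, Hoxd4 overlaps Hoxd3 and Mir10b, and Hoxb3, Hoxb6 and Hoxa7 overlap Hoxb3os, Hoxb5os and Hoxaas3 on the opposite strand. Over all members, 23 overlap another gene, 15 of them on the same strand, and their values are less certain for that.

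Adipocyte RNA moved with these results. The 10 adipocyte genes summed to 1980 to 46200 TPM in control glands and 190 to 1790 TPM in Trim24COE tumors. These sums did not overlap between the groups, and 3 of the 10 genes fell. Adipoq was above 0 in every mouse. The mean log2(TPM + 1) of the 10 genes, used as the covariate, did overlap. Carcinoma 89 was at 6.23, above glands 417_3 and 517_3 at 4.77 and 4.72, and the other Trim24COE tumors were at 2.35 to 4.71. With the mean adipocyte level as a covariate, 2 members stayed past the threshold, Hoxd9 (-2.11, adjusted p = 0.0410, limma) and Hoxd10 (-2.23, adjusted p = 0.00717), where 7.61% of all genes were called. Hoxb3 (-1.71, adjusted p = 0.0521) and Hoxb9 (-1.18, adjusted p = 0.0538) lost the call with the size of the difference kept. Hoxa7 (-0.57), Hoxb6 (-0.62), Hoxd4 (-0.87) and Hoxc10 (-0.93) moved much closer to 0, and Hoxb4 was at -1.11. With the near-identical glands averaged into 1, 8 members passed (11.6% of all genes were called), and Hoxb4 was lost with a difference of -1.43 (adjusted p = 0.0528). The other lists, taken against the same 6 tumors and 4 glands, gave 3 of 4 macrophage genes and 2 of 8 fibroblast genes higher, and 4 of 7 lymphocyte, 2 of 7 basal epithelial and 2 of 5 endothelial genes lower, with 0 of 7 luminal and 0 of 5 skeletal muscle genes called. Of all genes, 17.1% were called there, 7.96% higher and 9.13% lower. The part of these cell types in the Hox results was not tested beyond the adipocyte covariate.

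To see which results hold against either kind of gland, the 6 tumors were also compared with each pair separately, a choice made after the data were seen. Against fat-poor glands 417_3 and 517_3 alone, 5 members passed, all lower (16.2% of all genes were called): Hoxd10 (-2.20, SE 0.33, adjusted p = 0.00302, limma), Hoxb3 (-1.92, SE 0.44, adjusted p = 0.0194), Hoxd9 (-2.13, SE 0.53, adjusted p = 0.0277), Hoxb9 and Hoxc10. Against fat-rich glands 133 and 392 alone, 14 members passed, all lower (19.3% of all genes were called). Hoxd9 (-2.40, SE 0.53, adjusted p = 0.0165), Hoxd10 (-1.41, SE 0.34, adjusted p = 0.0208) and Hoxb3 (-1.57, SE 0.45, adjusted p = 0.0405) were among them. The estimate for Hoxc8 changed sign between the pairs, as did those of several other members, Hoxc4, Hoxc5, Hoxc6 and Hoxc9 among them. Hoxc8 was at 30.6 and 64.32 TPM in glands 133 and 392, 0.93 and 1.05 TPM in glands 417_3 and 517_3, and 0.04, 2.44 and 9.64 TPM in the tumors. Its difference was -3.80 (SE 0.79, adjusted p = 0.0126, limma) against the fat-rich pair and 0.71 (SE 0.76, adjusted p = 0.54) against the fat-poor pair. The interval of the latter, -1.01 to 2.43, holds both signs. Each pair holds 2 glands, and the fat-poor pair hardly varies.

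Across all 13 mice the members fell into recognizable sets, described after their values were seen and with no test. In first libraries, all 4 control glands were above all 9 tumors for Hoxb3, Hoxb4, Hoxb9, Hoxd9 and Hoxd10, 5 of the 26 members at 1 TPM or more in at least 3 mice, against 3.60% of all 16544 such genes. The 4 mice with the most adipocyte RNA (133, 392, FVB001 and FVB002) were above the other 9 for 10 of the 26 members, against 5.28% of all such genes: Hoxa7, Hoxa9, Hoxb5, Hoxb6, Hoxc5, Hoxc6, Hoxc8, Hoxc9, Hoxc10 and Hoxd4. Hoxc6, for example, was at 17.31, 21.25, 29.94 and 12.12 TPM in those 4 mice and at 0.32 to 8.75 TPM in the others. Hoxc9 was at 4.43, 14.32, 8.57 and 4.46 TPM against 0.09 to 3.81 TPM. Hoxa10 was at 4.32, 11.27, 9.56 and 5.04 TPM against 0.08 to 1.82 TPM in the others except carcinoma 273_5, at 7.62 TPM. The non-TRIM24 tumors were all sequenced in the second batch, so batch enters these descriptions.

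**Figure D4:**
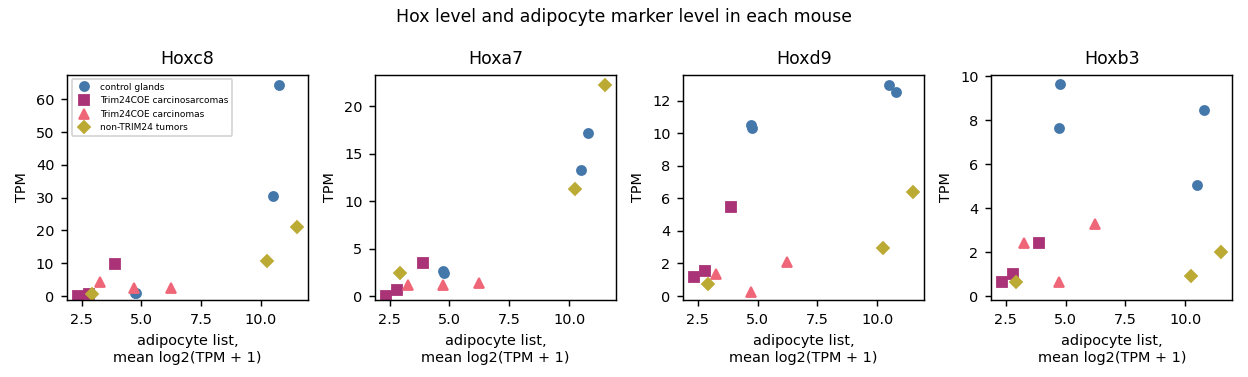
TPM of Hoxc8, Hoxa7, Hoxd9 and Hoxb3 (vertical axes) against the mean log2(TPM + 1) of 10 adipocyte genes (horizontal axis) in each of the 13 mice, with symbols by group. Hoxc8 and Hoxa7 are high in the 4 mice at the right, whereas Hoxd9 and Hoxb3 are high in the 4 control glands, of which 417_3 and 517_3 lie at 4.77 and 4.72 on the axis, beside carcinoma 273_5 at 4.71.

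Not all HoxA genes followed these sets. Hoxa5, a gene tied to Trp53 expression in human breast cells, was at 6.92, 7.13, 1.66 and 1.57 TPM in the glands and 2.33, 2.84 and 10.03 TPM in Trim24COE tumors (difference 0.15, SE 0.48, adjusted p = 0.865, limma). Hoxa3 (-0.07, SE 0.36) and Hoxa4 (0.27, SE 0.42) had intervals of -0.87 to 0.73 and -0.66 to 1.2. All 3 of these HoxA genes overlapped between glands and tumors.

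The same question was put to each histological class with the same control glands, so the comparisons share their controls. In carcinosarcomas against glands 6 of 24 tested members fell (Hoxb3, Hoxb6, Hoxb9, Hoxd4, Hoxd9 and Hoxd10) and none rose. Of all genes tested, 23% were called and 13.1% called lower. Hoxd4 reached 1 TPM in no carcinosarcoma, and Hoxb3, Hoxb6, Hoxb9 and Hoxd10 in 1 each, where the minimum was 3 libraries. These 5 passed it only through the glands, where they are high, and their difference is in part set by that minimum. The members' share called, 25%, was close to that of all genes. All 3 carcinosarcomas were below all 4 glands for 9 of the 24, against 21.6% of all genes. Hoxb3 was at 0.66, 2.40 and 0.99 TPM in carcinosarcomas 64, 567 and 897 (difference -1.93, SE 0.35, adjusted p = 0.00815, limma). Hoxd9 was at 1.19, 5.48 and 1.54 TPM (-1.92, SE 0.41, adjusted p = 0.0140) and Hoxd10 at 0.27, 1.54 and 0.23 TPM (-1.61, SE 0.38, adjusted p = 0.0213). For all 3 genes, carcinosarcoma 567 was the nearest to the glands. Without carcinosarcoma 64 the number that passed fell to 1 of 25, and all genes called fell from 3511 of 15287 to 1345 of 16525. Without 897 it was also 1 of 25, with 2185 of 16502 genes called. The member was Hoxb3 in either case. With the adipocyte covariate 2 passed, Hoxb3 and Hoxd10, while 31.7% of all genes were called. In that fit Hoxd9 was at -1.55 (adjusted p = 0.0578) and Hoxb9 at -1.17 (adjusted p = 0.0713), and the median over the tested members was 0.02 with 12 of 24 negative, against -1.08 and 22 without the covariate. With glands 417_3 and 517_3 averaged 5 passed (17.6% of all genes were called), Hoxb9 being lost at -1.08 (adjusted p = 0.0689). Against fat-poor glands 417_3 and 517_3 alone 7 members passed (37.6% of all genes were called), and against 133 and 392 alone 13 passed (31.9% of all genes were called). Luminal genes moved with this class, with 5 of 7 lower and a summed 304 to 1410 TPM against 848 to 4880 TPM in glands. Fibroblast genes did so as well, with 3 of 8 higher and a summed 2070 to 7980 TPM against 618 to 1810 TPM, and the part of either list was not tested.

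In carcinomas against glands 2 of 25 tested members fell, Hoxd9 and Hoxd10, and none rose, where 3.5% of all genes were called and 1.92% called lower. All 3 carcinomas were below all 4 glands for 9 of the 25, against 10.7% of all genes. Of the 25, Hoxd10, Hoxb9 and Hoxc10 reached 1 TPM in no carcinoma and so passed the minimum only through the glands, where they are high, and their difference is in part set by that minimum. Hoxd9 reached 1 TPM in 2 carcinomas, short of the minimum of 3 libraries, so it too needed the glands to pass. Hoxd9 was at 2.08, 0.22 and 1.34 TPM in carcinomas 89, 273_5 and 3956 (-2.60, SE 0.37, adjusted p = 0.0172, limma) and Hoxd10 at 0.20, 0.13 and 0.32 TPM (-2.0, SE 0.33, adjusted p = 0.0239). In the repeat library of tumor 3956 they were at 1.16 and 0.06 TPM. Both calls were lost with glands 417_3 and 517_3 averaged (adjusted p = 0.0515 and 0.0617), although the differences were -2.65 and -1.86, and 0.543% of all genes were called. With the adipocyte covariate both stayed past the threshold (-2.44 and -2.37, adjusted p = 0.0303 and 0.0160), where 5.05% of all genes were called. Hoxd10 was lost without carcinoma 89 (adjusted p = 0.0683) or 273_5 (0.0686). Neither passed without carcinoma 3956 (100 of 16594 genes called) or without gland 417_3 (87 of 15021) or 517_3 (72 of 15143). Against 417_3 and 517_3 alone 2 members passed (7.77% of all genes were called), and against 133 and 392 alone 8 passed (7.81% of all genes were called). Of the 10 adipocyte genes none was called in this class, although their median log2 difference was -2.88, and 2 of 7 basal epithelial genes were lower.

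**Figure D5:**
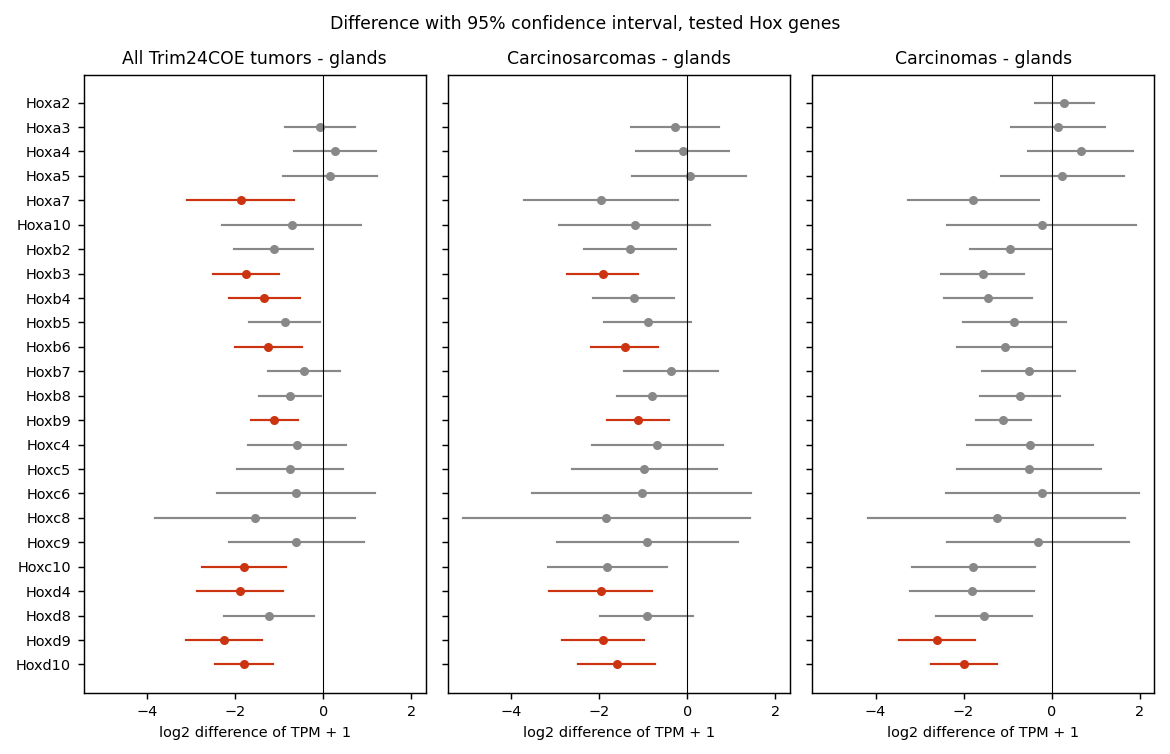
Log2 difference of TPM + 1 (horizontal axis, tumors minus glands) with its 95% confidence interval for the tested members (vertical axis), for all Trim24COE tumors, carcinosarcomas and carcinomas against the same 4 glands; red marks an adjusted p under 0.05 (limma). The red members all lie below 0, and Hoxd9 and Hoxd10 are red in all 3 panels.

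Carcinosarcomas and carcinomas were then compared directly. None of the 20 tested members passed in limma, where 0.698% of all genes were called. An unadjusted p under 0.05 was given by 0 members and by 2126 of all 14193 genes. Hoxd9 differed by 0.68 (95% interval -0.59 to 1.95), Hoxb3 by -0.36 (-1.46 to 0.74) and Hoxc8 by -0.59 (-2.54 to 1.37). These intervals leave room for a rise of over 2-fold of Hoxd9, a fall of over 2-fold of Hoxb3 and either for Hoxc8. The member with the smallest p-value was Hoxa4, at 0.95, 1.10 and 0.37 TPM in carcinosarcomas and 1.33, 3.95 and 1.42 TPM in carcinomas (-0.77, SE 0.39, adjusted p = 0.401), the only member of the 20 without overlap, as was so in this direction for 14.4% of all genes.

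Single tumors stood apart within their class. Carcinoma 273_5 had Hoxc11 at 4.27 TPM and Hoxc13 at 4.02 TPM, with 0.24 and 0.17 TPM in carcinoma 89 and 0.00 and 0.02 TPM in carcinoma 3956, and it had the lowest Hoxd8, Hoxd9 and Hoxb2 levels of the carcinomas. The long noncoding RNA Hotair, which lies between Hoxc11 and Hoxc12, was at 0.90 TPM in 273_5 and at most 0.19 TPM in the other mice. Carcinosarcoma 64 had no HoxC gene above 0.51 TPM, yet Hoxb4 at 6.24 TPM was its highest member. Carcinosarcoma 567 had the highest HoxC and HoxD sums of the Trim24COE tumors, 25.72 and 24.72 TPM. Each of these is 1 mouse with no further replicate.

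Non-TRIM24 tumors were compared with control glands in a fit of all 15 libraries with a batch term and with repeat libraries of a mouse linked (correlation 0.951). None of 26 tested members passed in limma, where 0.709% of all genes were called. In the same fit, 6 of the 26 members, all lower, and 3235 of all 16775 genes had an unadjusted p under 0.05. Hoxd10 was at 0.32, 1.35 and 0.20 TPM in tumors 219, FVB001 and FVB002 (-1.53, SE 0.41, adjusted p = 0.104) and Hoxb3 at 0.64, 2.01 and 0.92 TPM (-1.57, SE 0.46, adjusted p = 0.121). All 3 tumors were below all 4 glands for both genes. Hoxd9 was at 0.73, 6.40 and 2.98 TPM (-1.50, SE 0.53, adjusted p = 0.169) and Hoxb4 at 0.95, 2.81 and 1.62 TPM (-1.15, SE 0.45, adjusted p = 0.202). In all, 7 of the 26 members were lower in each of these tumors than in each gland, and so were 23.9% of all genes. Hoxa7 was at 22.21 and 11.27 TPM in FVB001 and FVB002, around the level of the fat-rich glands, and at 2.46 TPM in tumor 219.

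Hoxa11 separated the non-TRIM24 tumors from one another. It was at 2.09 and 1.88 TPM in FVB001 and FVB002, listed at 0 in tumor 219, and at most 0.09 TPM in the other 10 mice. Its antisense partner Hoxa11os, which overlaps it, was at 6.43 and 2.99 TPM in the same tumors and at most 0.24 TPM elsewhere. Hoxa11 did not reach the minimum for testing.

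Between Trim24COE carcinomas and non-TRIM24 tumors none of 26 tested members passed in limma, where 0.0298% of all genes were called. In that fit 2 of the 26 members had an unadjusted p under 0.05, and so did 2953 of all 16775 genes, a larger share. Hoxc10 was at 0.05, 0.40 and 0.00 TPM in carcinomas 89, 273_5 and 3956 and 1.29, 12.72 and 6.12 TPM in tumors 219, FVB001 and FVB002 (-2.60, SE 0.72, adjusted p = 0.171). Hoxa7 was at 1.36, 1.12 and 1.12 TPM against 2.46, 22.21 and 11.27 TPM (-2.24, SE 0.82, adjusted p = 0.215). Neither gene overlapped between the classes. In this direction that was so for 7.69% of tested members and 6.22% of all genes. In the other direction it was so for no tested member and 30.1% of all genes. The non-TRIM24 tumors highest in both Hoxc10 and Hoxa7 were those highest in adipocyte RNA.

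Partners and regulators of the clusters were followed in the same fits. Of the TALE cofactors, 0 of 8 tested passed between Trim24COE tumors and glands in limma; Pbx3 had a difference of 0.84 (SE 0.31, adjusted p = 0.0827) and rose in carcinosarcomas (1.24, SE 0.28, adjusted p = 0.0174), at 13.02, 9.64 and 7.94 TPM in 64, 567 and 897 and 3.21 to 4.42 TPM in glands. Of 20 Polycomb genes, 1 rose and 2 fell in Trim24COE tumors, a share no larger than the 17.1% of all genes called. Cbx7, a chromodomain subunit of Polycomb repressive complex 1, was at 19.87, 41.32, 51.24 and 37.19 TPM in glands 133, 392, 417_3 and 517_3 and at 1.35, 2.17 and 3.57 TPM in carcinosarcomas 64, 567 and 897 and 4.54, 5.74 and 2.29 TPM in carcinomas 89, 273_5 and 3956. No tumor overlapped the glands (-3.18, SE 0.36, adjusted p = 0.000468, limma). Ring1, another subunit of the complex, fell (-1.50, SE 0.35, adjusted p = 0.0159) and Phc2 rose (1.25, SE 0.28, adjusted p = 0.0135). Of 14 trithorax and H3K27 demethylase genes 0 passed for all Trim24COE tumors. In carcinosarcomas 1 of the 14 rose and 2 fell, a share no larger than the 23% of all genes called there. Psip1 rose (1.54, SE 0.30, adjusted p = 0.0107, limma), and Kmt2b (-1.42, SE 0.32, adjusted p = 0.0177) and Dot1l (-1.59, SE 0.46, adjusted p = 0.0411) fell.

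Of the RNAs within and genes beside the clusters, 11 were tested, and Hoxb3os fell in Trim24COE tumors (-1.93, SE 0.40, adjusted p = 0.00888, limma) while Skap2, which flanks HoxA, rose (0.79, SE 0.20, adjusted p = 0.0218). In that comparison 17.1% of all genes were called, 9.13% lower and 7.96% higher. Hoxb3os overlaps Hoxb3 on the opposite strand, and reads of the pair cannot be told apart where strand was not used. Of 13 other homeobox and T-box genes tested, 3 fell and 1 rose, against the same shares of all genes. Msx2, which acts in mammary bud development, was at 3.77, 6.11, 3.54 and 3.31 TPM in glands 133, 392, 417_3 and 517_3, at most 0.52 TPM in Trim24COE tumors (-1.98, SE 0.22, adjusted p = 0.000451) and 0.25, 0.03 and 0.05 TPM in non-TRIM24 tumors 219, FVB001 and FVB002 (-2.06, SE 0.29, adjusted p = 0.00956). Meox2 (-2.43, SE 0.30, adjusted p = 0.00066) and Satb1 (-1.67, SE 0.28, adjusted p = 0.00297) also fell. Prrx2, a homeobox gene of mesenchyme, rose from 1.85 to 4.94 TPM in glands to 11.24 to 38.72 TPM in Trim24COE tumors (2.56, SE 0.39, adjusted p = 0.00204).

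The repeat libraries gave the size of technical variation for the members. The median absolute log2 difference of TPM + 1 over the 39 members was 0.11 between the libraries of tumor 3956 and 0.34 between those of gland 133. The widest gaps were 0.73 for Hoxd8 in 3956 and 1.53 for Hoxb1 in 133, which was at 2.69 TPM in the first and 0.28 TPM in the second library. Between different glands Hoxc8 differed by up to 5.08 (392 and 417_3). In the second library of gland 133, Hoxd9, Hoxd10 and Hoxb3 were at 9.72, 3.26 and 2.96 TPM, and for Hoxb3 this lay below the 3.26 TPM of carcinoma 89. Hoxb4 was at 4.50 TPM there, below carcinosarcoma 64 and carcinoma 89. The separation of Hoxb3 and Hoxb4 between glands and tumors thus rests on the first library of gland 133.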

How the data were processed

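Mammary RNA of 13 mice was sequenced in 15 libraries, and groups were taken from the sample labels. The deposited values are TPM per gene; the authors aligned trimmed reads with STAR to GRCm38 with GENCODE M14 and estimated abundance with RSEM, while the submitters' processing notes list mm10, TopHat, Cufflinks and RSEM. Labels and methods differ on the library kit (stranded or not), and the strand setting is not given in the sources used here. TPM keep no counts, so depth is unknown, and counting intervals are not given. Within a group the samples are separate mice, apart from the repeat libraries.

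Hox genes were matched by symbol, and all 39 were found in GENCODE M21 (GRCm38), 38 with the same ID version. Within batch 1, limma 3.58.1 (R 4.3.3, eBayes with a variance trend, two-sided, Benjamini-Hochberg adjustment over all genes tested, threshold 0.05) was fitted to log2(TPM + 1) of the groups compared, for genes reaching 1 TPM in a number of libraries equal to the mice of the smaller group; such differences understate changes of low genes. For non-TRIM24 tumors, which were all in batch 2, the fit took in the 15 libraries, with batch as a term and duplicateCorrelation (statmod 1.5.0) for repeat libraries. The fits were tested on simulated data. Levels were described with Python 3.11.15. Alternatives were another pseudocount (0.1), no filter, quantile scaling, an adipocyte covariate, a joint fit, other treatments of batch and repeats, and leaving out each mouse.

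The members, gene lists and tests were chosen with earlier results of these data known. Every member could be named; values per mouse are given for members past the threshold and the 3 highest members of each cluster, and up to 4 genes of a list by smallest adjusted p. Other members named were chosen after their values were seen. Columns of all 15 samples were used. Values of 1 Hox member, which stays in all counts and sums, are not reported here.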

Additional observations from a re-analysis of the deposited data

Results flagged for a closer look

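Levels of each member were searched for single mice far from their group by Dixon's ratio on log2(TPM + 1), in the 4 control glands and in the 6 Trim24COE tumors, where a group reached 1 TPM; chance flags about 1 in 20 such groups, and 54 groups were examined. Carcinoma 273_5 stood above the other Trim24COE tumors for 3 members. Hoxc11 was at 4.27 TPM there and at 0.00 to 0.31 TPM in the others, Hoxc13 at 4.02 TPM against 0.00 to 0.31 TPM, and Hoxa6 at 1.16 TPM against 0.00 to 0.31 TPM. Hoxd10 was at 1.54 TPM in carcinosarcoma 567 and at 0.13 to 0.32 TPM in the other Trim24COE tumors, and its difference from the glands was -1.80 with this tumor and -1.98 without it. The cause was not tested for any of these.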

How the results depend on the processing

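Of 17 calls of a member in a comparison with control glands, all 282 values under the alternatives kept the negative sign and 201 stayed past the threshold; Hoxd9 and Hoxd10 in all Trim24COE tumors and Hoxb3 in carcinosarcomas did so in every alternative run. The calls were picked as lower in these mice, and the alternatives refit the same mice. The 282 values are therefore not independent, and a kept sign was likely from the start. For all Trim24COE tumors 9 of 24 members were called, and 2597 of 15196 genes. Without the filter this became 4 of 39 members and 1890 of 39693 genes, and with quantile scaling 5 of 24 members and 2786 of 15196 genes. With the adipocyte covariate it was 2 of 24 members and 7.61% of genes. Against glands 417_3 and 517_3 it was 5 of 25 (16.2% of genes), and against glands 133 and 392 it was 14 of 26 (19.3%). Leaving out 1 mouse gave 6 to 9 members and 1779 to 2911 genes. For carcinosarcomas 6 of 24 members were called, and 3511 of 15287 genes. Without the filter this became 2 of 39 members and 1623 of 39123 genes. With quantile scaling it was 2 of 24 members and 3292 of 15287 genes, a larger share than that of the members. With the covariate it was 2 of 24 (31.7% of genes), and against glands 133 and 392 it was 13 of 25 (31.9%). Leaving out 1 mouse gave 1 to 6 members and 1345 to 3093 genes, being 1 member without 64 or 897. For carcinomas 2 of 25 members were called, and 542 of 15479 genes. Without the filter this became 0 of 39 members and 46 of 38798 genes, with 10 members and 4158 genes at an unadjusted p under 0.05 (limma). With glands 417_3 and 517_3 averaged it was 0 of 25 members and 82 of 15093 genes, with 10 members and 2860 genes at an unadjusted p under 0.05. Against glands 133 and 392 it was 8 of 26 members and 1255 of 16069 genes. Leaving out 1 mouse gave 0 to 2 members and 72 to 526 genes, being 0 members without 417_3, 517_3 or 3956 and 1 without 89 or 273_5. Between carcinosarcomas and carcinomas 0 to 0 members passed. For non-TRIM24 tumors against glands 2 of 26 members, Hoxb3 and Hoxd10, passed with no batch term, where 367 of 16775 genes were called. Leaving out 1 mouse gave 0 to 1, Hoxb3 without gland 133 (476 of 16344 genes) and Hoxa11 without tumor 219 (70 of 17808). For carcinomas against non-TRIM24 tumors 0 to 1 passed, Hoxa11 without tumor 219 (89 of 17808 genes). Hoxa11 then met the minimum only through the 2 tumors where it is high, so its call adds nothing to its levels. Removing the filter raised the number of genes tested from 15196 to 39693 for all Trim24COE tumors; the cause of the other changes was not tested. Quantile scaling moved the median difference of all genes from -0.12 to 0.04 in carcinosarcomas against glands from -0.27 to -0.04 in non-TRIM24 tumors against glands, from -0.10 to 0.045 between carcinosarcomas and carcinomas and from 0.27 to 0.08 between carcinomas and non-TRIM24 tumors; the genes called higher and lower went from 1503 and 2008 to 1865 and 1427 in the first and from 34 and 85 to 45 and 68 in the second. Counted at 0.5 TPM, 8 members were present in all 13 mice. Without mouse 133 or 3956 the correlation of repeats could not be estimated, and that of all libraries was used. No paired analysis was possible because mouse numbers are not shared between groups. The pairs of glands and the averaged glands were chosen after seeing the data. Depth is unknown, and levels near 0 may differ without being detectable.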
